A study of Mus musculus with 34 samples.

Results

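The forebrain-only distal H3K4me1 regions are 8008 of the 34848 H3K4me1 regions deposited for mouse forebrain at embryonic day 11.5 (23.0%). They were chosen by overlap alone: a forebrain region was kept where it shared no base with a limb H3K4me1 region or with an H3K4me3 region of limb or forebrain. Of the 18953 forebrain H3K4me1 regions away from H3K4me3 they make up 42.3%, and the 10945 others, called shared distal here, also carried H3K4me1 in limb. The mirror set, 29990 limb-only distal regions, was formed in the same way from the 58181 limb H3K4me1 regions. The 30 lists used hold 354733 regions in all.

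Histone marks were mapped in forebrain and limb of CD1 embryos, with tissue of about 150 embryos of both sexes pooled for each library. FLAG-tagged coactivators were mapped with an anti-FLAG antibody in 129/C57BL/6 embryos of the same day, or in embryonic stem cells (ESC) of the same line, that carried a FLAG knock-in. About 150 or 300 embryos were pooled per tissue. The tagged proteins were SMARCA4 in forebrain, midbrain, hindbrain, neural tube, face, limb, heart and ESC, SMARCC2 in hindbrain and face, EP300 in face and ESC, and NCOA1 and NCOA2 in hindbrain. A control list, of a sample that the labels call an input control, was used for SMARCA4 midbrain, both SMARCC2 tissues, EP300 face, NCOA1 and NCOA2. Each condition had 1 library, so no difference has a replicate check, no p-value was computed, and every interval covers counting error only. A pooled tissue holds several cell types, and a region used in few cells cannot be told apart from a weak mark in many.

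H3K4me1 is a histone modification that marks enhancers and the flanks of gene starts, while H3K4me3 marks active or poised gene starts. Away from H3K4me3, an H3K4me1 region is therefore commonly read as an enhancer, whether in use, poised or silent, and distal H3K4me1 is known to differ between tissues more than marks at gene starts do. H3K27me3 is the Polycomb mark of repressed or poised chromatin, H3K27ac marks active elements, SMARCA4 and SMARCC2 belong to the SWI/SNF (BAF) chromatin remodelling complex, EP300 is a histone acetyltransferase found at enhancers, and NCOA1 and NCOA2 are coactivators of nuclear receptors.

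The promoters below belong to genes with many of these regions around them and with 0 limb-only regions within 100 kb: Epha4, an Eph receptor of axon guidance with 8 forebrain-only regions, Ptprz1, a receptor tyrosine phosphatase of neural progenitors and glia with 6, and Neurog2, a proneural factor of the cortex with 4. All 3 starts carried H3K4me3 in forebrain and in limb and H3K27me3 in limb. The sequences are RefSeq's, in GRCm38.p6, run from 250 bases before to 50 after the start, and have every CG dinucleotide in capitals, since H3K4me3 and Polycomb are both known for CpG-rich starts.
Epha4: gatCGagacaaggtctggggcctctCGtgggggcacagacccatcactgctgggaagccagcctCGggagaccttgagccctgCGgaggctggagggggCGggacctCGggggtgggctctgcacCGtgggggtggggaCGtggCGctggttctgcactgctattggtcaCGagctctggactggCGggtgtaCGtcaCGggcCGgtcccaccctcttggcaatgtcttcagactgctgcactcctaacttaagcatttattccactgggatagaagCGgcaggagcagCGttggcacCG
Ptprz1: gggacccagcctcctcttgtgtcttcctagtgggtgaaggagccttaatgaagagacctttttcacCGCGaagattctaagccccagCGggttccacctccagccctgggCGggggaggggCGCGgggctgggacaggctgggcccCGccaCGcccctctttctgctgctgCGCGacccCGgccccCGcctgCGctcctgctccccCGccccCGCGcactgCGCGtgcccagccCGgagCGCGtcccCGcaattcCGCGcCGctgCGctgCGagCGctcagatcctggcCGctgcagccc
Neurog2: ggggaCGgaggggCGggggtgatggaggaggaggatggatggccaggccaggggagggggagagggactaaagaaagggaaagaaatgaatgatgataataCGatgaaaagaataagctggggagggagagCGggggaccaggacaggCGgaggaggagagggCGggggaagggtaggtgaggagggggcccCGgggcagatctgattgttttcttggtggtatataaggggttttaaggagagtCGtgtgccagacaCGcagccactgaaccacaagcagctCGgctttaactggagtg
The Epha4 promoter (chr1:77515039-77515338, minus strand) held 17 CG dinucleotides, and 65.5% of all promoters of that table held as many. Ptprz1 (chr6:22875252-22875551, plus strand) held 29, which 28.4% of promoters reached, and Neurog2 (chr3:127632886-127633185, plus strand) held 10, which 81.6% reached. CG is its own reverse complement, so 1 search covers both strands. The median ratio of observed to expected CG was 0.767 over 742 promoters of genes with 3 or more forebrain-only regions and 0.758 over 8133 promoters, so the genes around the regions did not stand apart in this feature.

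Forebrain-only regions were narrower than shared ones. Their median width was 1228 bp, with quartiles of 962 and 1642 bp and a range of 376 to 13611 bp. The shared distal regions had a median of 1451 bp and the limb-only regions one of 1130 bp. A width of 3 kb or more was reached by 3.796% of forebrain-only, 10.95% of shared and 6.36% of limb-only regions. The authors' rank placed 28.9% of the forebrain-only regions in the better-ranked 50% of the forebrain list, with a median rank of 23683, against 47.6% and 18229 for shared regions. What the rank was sorted on is unknown here. The width and the rank were both read from the list that chose the members.

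At the edge of the rule, 936 members (11.7%) had an excluding region within 1 kb and 98 (1.22%) had one within 100 bp. On the other side, 71 shared regions (0.649%) were covered by limb H3K4me1 over less than 10% of their bases, while 86.8% were covered over at least 50%.

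The regions lay far from gene starts. The median distance to the nearest start was 40.9 kb, against 33.9 kb for shared and 35.6 kb for limb-only regions. Within 1 kb of a start lay 196 members (2.45%), within 10 kb 17.1%, and beyond 100 kb 1969 (24.6%). For shared regions the share beyond 100 kb was 19.0% and for limb-only regions 20.7%. Starts were placed for part of the genes only, so these distances are upper limits.

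**Figure D1:**
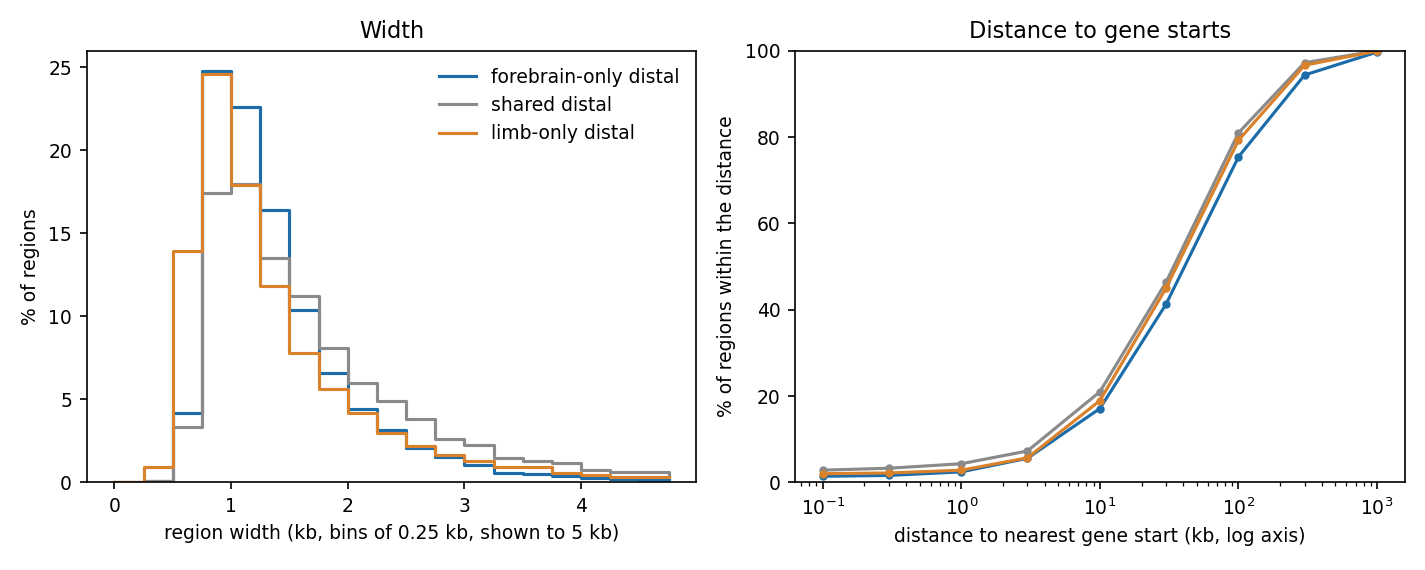
Left, width of distal H3K4me1 regions in bins of 0.25 kb as a percentage of the regions of each set; right, percentage of regions within a given distance of a gene start, on a log axis of kb. The forebrain-only curve lies below both others from 10 kb on (75.4% within 100 kb, against 81.0% of shared and 79.3% of limb-only regions).

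The 5 widest members lay nearest to Wnt7b, a Wnt ligand made in the embryonic forebrain, Atp2b2, a calcium pump of the plasma membrane, Npas3, a bHLH-PAS factor of the brain, Dos and Ankrd33. The Wnt7b region was the widest at 13611 bp (mm9, chr15:85284636-85298246). It lay 110 kb from the placed Wnt7b start, within the SMARCA4 neural tube list and 1 control list. A group of 5 forebrain-only regions spanned 31.1 kb near the same gene. The Atp2b2 region (chr6:113885772-113893385) was 7614 bp wide, lay 1.10 kb from the start and carried limb H3K27me3. The Npas3 region (chr12:54160909-54168150) was 7242 bp wide and lay 182 kb from the nearest start, in the SMARCA4 ESC list. The Dos region was 6976 bp wide and the Ankrd33 region 6954 bp wide.

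By rank, the first member was number 95 of the list, 12.5 kb from the start of Eml1, a microtubule-associated protein whose loss displaces cortical neurons in mice (chr12:109632677-109636385, 3709 bp wide), and lay in no FLAG list. The next best lay nearest to AK087393 (rank 110), Pik3c2b, a phosphoinositide kinase (rank 179), C130026L21Rik (rank 181) and Sh3bp4 (rank 184). Of these, the regions nearest to AK087393 and Pik3c2b lay in the forebrain SMARCA4 list, and those nearest to Pik3c2b and Sh3bp4 also in limb H3K27ac.

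H3K27me3 covered few of the regions, and limb H3K27me3 covered more than forebrain H3K27me3. Forebrain H3K27me3 overlapped 334 of 8008 regions (4.17%, exact 95% interval 3.74 to 4.63%) and limb H3K27me3 549 (6.86%, 6.31 to 7.43%). After moving the H3K27me3 list along each chromosome by 1 step drawn at random, wrapped round its end, the mean share over 100 such circular shifts was 1.24% for forebrain and 2.51% for limb. The shares were thus 3.36 and 2.73 times those after shifts. Of the members, 215 (2.68%) carried the forebrain mark alone, 430 (5.37%) the limb mark alone, 119 (1.49%) both and 7244 (90.5%) neither. The limb H3K27me3 list is longer (13137 against 11073 regions) and wider (median 2052 against 990 bp), which the shifts take into account and the raw shares do not.

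Set beside the other distal regions, forebrain-only regions lay between them. H3K27me3 of either tissue lay over 9.54% of them (8.91 to 10.2%), over 15.3% of shared regions and over 6.91% of limb-only regions. The forebrain mark overlapped 4.17% of forebrain-only and 1.89% (1.74 to 2.05%) of limb-only regions, and with the limb H3K4me1 list shortened to the length of the forebrain list by rank the values were 4.72% and 2.17%, with intervals apart in both cases. Shortening the limb list changes the sets, to 11155 forebrain-only and 12887 limb-only regions. The forebrain-only set then also holds regions that overlap a limb H3K4me1 region left out by the cut. The limb mark overlapped 6.86% and 6.02% (5.75 to 6.29%), and at equal list lengths 7.92% and 7.15%, where the intervals overlapped. Members with the forebrain mark alone had a median width of 1614 bp and those with neither mark one of 1214 bp, and a wider region has more bases to share. Limb H3K27ac, a mark of active elements in the other tissue, overlapped 173 members (2.16%, 1.85 to 2.50%), close to the 1.96% after shifts, against 13.98% of shared and 6.48% of limb-only regions. The rule removes regions over H3K4me3, however, and 31.9% of the limb H3K27ac list lay away from it. Limited to that part, a setting chosen after the data were seen, it covered 2.12% of members against 0.533% after shifts. That was 3.98 times, against 21.5 times for shared and 11.8 times for limb-only regions. No forebrain H3K27ac list was used here.

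**Figure D2:**
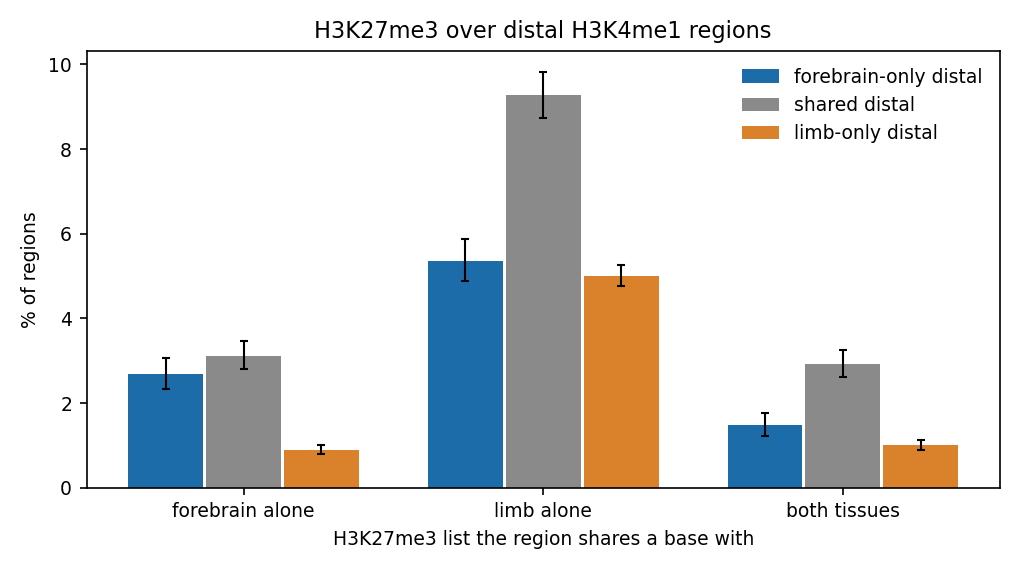
Percentage of forebrain-only, shared and limb-only distal H3K4me1 regions that share a base with forebrain H3K27me3 alone, limb H3K27me3 alone or both (bars from 0; black lines, exact 95% intervals). The limb mark alone is the most frequent state in each set, at 5.37% of forebrain-only, 9.27% of shared and 5.02% of limb-only regions.

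SMARCA4 of neural tissues lay over forebrain-only regions more often than over limb-only ones. The share in SMARCA4 forebrain was 1.92% (154 regions, 1.63 to 2.25%) against 0.614% of limb-only regions (0.528 to 0.709%). In SMARCA4 midbrain it was 1.01% (81 regions) against 0.187%, in hindbrain 1.77% (142) against 0.594% and in neural tube 4.52% (362) against 1.99%. In each of these 4 lists the intervals did not overlap, also at equal list lengths, where the shares were 2.11% against 0.908% in forebrain, 1.18% against 0.217% in midbrain, 2.25% against 0.830% in hindbrain and 4.81% against 2.69% in neural tube. The equal-length shares are of the changed sets of 11155 and 12887 regions, some of the former over limb H3K4me1, and not of the same members. In 1 or more of the 4 lists lay 654 forebrain-only regions (8.17%), against 3.13% of limb-only and 17.2% of shared regions. Every peak of the midbrain list has a false discovery rate of 100% in the authors' deposited table, and the hindbrain sample is tagged as forebrain in 1 of its labels, so both lists carry that doubt.

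Outside the neural tissues the order was mixed. SMARCA4 face covered 9.38% of forebrain-only regions (751, 8.75 to 10.04%), fewer than the 16.7% of limb-only regions, and SMARCA4 heart 4.595% (368) against 5.54%. SMARCA4 ESC covered 3.45% (276) against 1.66%, the only list from outside the nervous system with a higher share whose interval lay apart. SMARCA4 limb covered 0.587% (47) against 0.410%, with overlapping intervals and the opposite order at equal list lengths (0.565% against 0.675%). Of the other factors, SMARCC2 face covered 4.02% (322) against 4.04% of limb-only regions, and at equal lengths 5.17% against 6.999%, with intervals apart. SMARCC2 hindbrain covered 0.200% (16) against 0.187%, and at equal lengths 0.197% against 0.264%. EP300 ESC covered 1.36% (109) against 1.98%, and EP300 face 0.362% (29) against 0.213%. NCOA1 covered 6 regions (0.0749%) and NCOA2 8 (0.0999%), too few to compare.

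The controls did not share the neural pattern. In none of the 6 control lists was the share of forebrain-only regions above that of limb-only regions: midbrain control 1.87% against 3.63%, SMARCC2 hindbrain control 0.0749% against 0.0967%, SMARCC2 face control 0.112% against 0.133%, EP300 face control 4.97% against 8.05%, NCOA1 control 0.475% against 0.487% and NCOA2 control 0.649% against 1.04%. In 3 of them, those of midbrain, EP300 face and NCOA2, the forebrain-only share was lower with intervals apart. Among the 14 FLAG lists the share was higher in forebrain-only regions in 10, of which 5 had intervals apart, and lower with intervals apart in 3. At equal list lengths the counts were 8, 5 and 4. Of the 654 regions in neural SMARCA4 lists, 108 (16.5%) also lay in a control or input list, more than the 606 (7.57%) of all members. By list this share ran from 13.4% of the members in SMARCA4 hindbrain to 24.7% of those in SMARCA4 forebrain (38 of 154). The other 546 of the 654 were 6.82% of all members. The control of SMARCA4 forebrain itself was not analysed here.

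Against circular shifts the FLAG lists ranged widely. Of the 14, 9 covered more forebrain-only regions than in any of the 100 shifts and 4 fewer than the mean of the shifts. The highest ratios were 7.84 for SMARCA4 ESC (mean after shifts 0.440%), 7.19 for SMARCA4 midbrain (0.141%), 4.41 for SMARCA4 heart (1.04%) and 4.30 for SMARCA4 hindbrain (0.412%). Neural tube stood at 2.04 (2.22%), face at 3.11 (3.02%), SMARCC2 face at 2.63 (1.53%), EP300 ESC at 1.98 (0.689%), SMARCC2 hindbrain at 1.41 (0.142%) and SMARCA4 forebrain at 1.35 (1.43%). The forebrain list covered more than its highest shift, 1.80%. EP300 face (0.993), NCOA1 (0.765), SMARCA4 limb (0.723) and NCOA2 (0.285) lay below their shifts. Controls covered more regions than in any shift for EP300 face (2.40) and NCOA1 (3.73), and stood at 1.12 for midbrain, 1.46 for SMARCC2 hindbrain, 1.62 for SMARCC2 face and 1.38 for NCOA2. The inputs covered 0.02498% of the regions in forebrain (2 regions) and 0.2498% (20) and 0.1748% (14) in limb. Their ratios were 0.816 in forebrain and 2.95 and 3.72 in limb, where each input covered more regions than in any shift.

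The rule removes every region over H3K4me3, while many FLAG peaks lie there, which holds the ratios down for lists of gene starts. Of the SMARCA4 forebrain peaks 14.97% lay away from H3K4me3, of the SMARCA4 limb peaks 9.94% and of the ESC peaks 75.7%. With each list limited to peaks away from H3K4me3, a setting chosen after the data were seen, SMARCA4 forebrain covered 1.59% of the regions against 0.209% after shifts, or 7.58 times. Midbrain then stood at 20.1 times its shifts, hindbrain at 13.6, neural tube at 7.09, face at 7.11, limb at 6.91, heart at 7.03 and ESC at 10.4. The other FLAG lists stood at 7.34 for EP300 face, 6.78 for SMARCC2 face, 5.26 for NCOA2, 4.69 for EP300 ESC, 1.81 for NCOA1 and 1.48 for SMARCC2 hindbrain. The controls stood at 4.87 for NCOA1, 4.52 for EP300 face, 4.39 for NCOA2, 3.14 for midbrain, 2.70 for SMARCC2 hindbrain and 1.69 for SMARCC2 face, so the 8 SMARCA4 lists lay above all 6 controls, while NCOA1 and SMARCC2 hindbrain lay below their own controls. Shared regions had higher ratios than forebrain-only ones in each of the 8 SMARCA4 lists, such as 24.4 for forebrain and 11.8 for ESC. Limb-only regions had higher ratios for SMARCA4 face (12.5) and heart (8.39) and lower ones for the other SMARCA4 lists. Seen from the peaks, 11.5% of the 1100 SMARCA4 forebrain peaks away from H3K4me3 lay over forebrain-only regions and 54.9% over shared ones. Over limb-only regions, the largest set, lay 12.3% of them. In the same order it was 13.6%, 50.6% and 9.26% of 605 midbrain peaks, and 4.28%, 23.0% and 28.8% of 17671 face peaks.

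**Figure D3:**
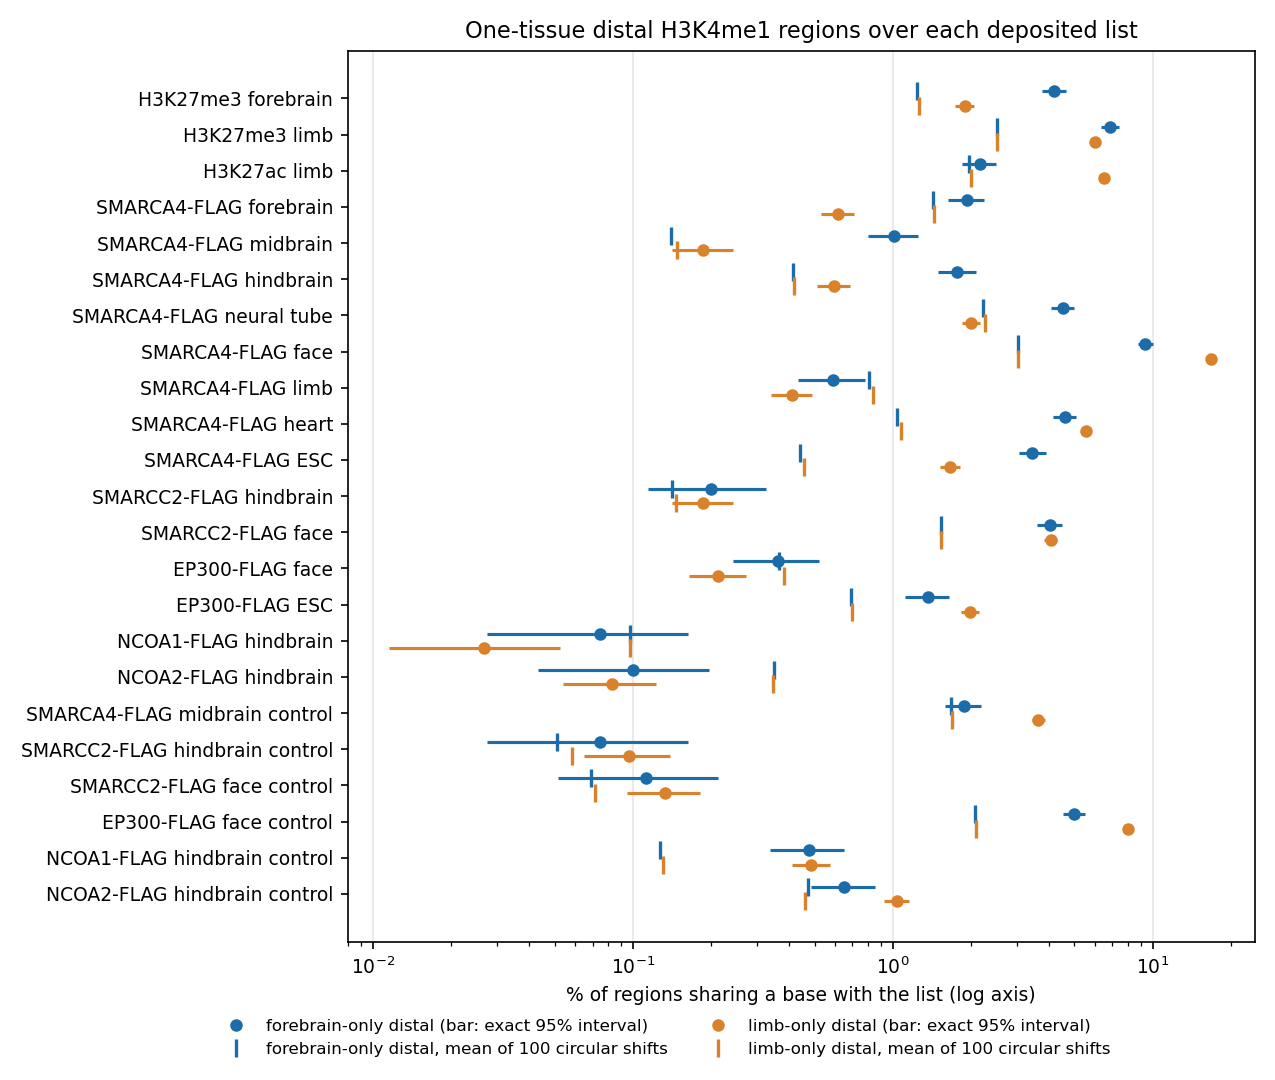
Percentage of forebrain-only (blue) and limb-only (orange) distal H3K4me1 regions that share a base with each mark, FLAG or control list, on a log axis; circles are measured shares with exact 95% intervals and upright ticks the mean of 100 circular shifts. Blue circles lie to the right of orange ones for 10 of the 14 FLAG lists, for forebrain and limb H3K27me3, and for none of the 6 controls. Among the FLAG lists, the intervals are then apart for SMARCA4 of forebrain, midbrain, hindbrain, neural tube and ESC.

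Most forebrain-only regions lay in no FLAG list. That held for 6033 of them (75.3%). A further 1486 (18.6%) lay in 1 list, 333 (4.16%) in 2, 116 (1.45%) in 3, 33 in 4, 5 in 5 and 2 in 7. Shared regions lay in at least 1 list in 56.3%, limb-only regions in 26.8% and forebrain-only regions in 24.7%. Bound members were wider (median 1381 against 1187 bp), better ranked (19792 against 24676) and nearer to starts (34.9 against 42.8 kb) than unbound ones. H3K27me3 of either tissue lay over 13.3% of bound members (11.8 to 14.8%) and over 8.32% of unbound members (7.64 to 9.05%), and the part of width in this was not tested. The 154 members in SMARCA4 forebrain lay 14.9 kb from a start in the median, and 23.4% of them (16.9 to 30.9%) carried H3K27me3.

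The 2 members in the most FLAG lists differed in kind. One, 113 kb from Rere, a nuclear receptor coregulator (chr4:149769417-149773056, 3640 bp), lay in SMARCA4 of forebrain, midbrain, neural tube, face, limb and heart and in SMARCC2 face, overlapped limb H3K27ac and lay in no control list. The other, 71.9 kb from AK006677 (chr4:124977766-124978518, 753 bp), lay in 7 lists, among them SMARCA4 ESC and both EP300 lists, carried H3K27me3 of both tissues and also lay in 2 control lists. Members in 5 lists lay nearest to Cnga3, a cone photoreceptor channel, Plekha6, Rbm15, an RNA-binding protein, Hist1h3e, a histone H3 gene, and Phlda1. The member at Cnga3 covered the placed start, and those at Hist1h3e, Rbm15 and Phlda1 lay 0.254, 0.789 and 1.14 kb from one, so that 4 of these 5 lay over a placed start or within 1.14 kb of one. Members in 4 lists included those nearest to Ankrd33, AK019339 and Ssbp3, a cofactor of LIM-homeodomain complexes.

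The nearest genes leaned further to forebrain in their marks than those of limb-only regions. The 8008 regions had 4277 nearest genes when a symbol placed on more than 1 chromosome is counted on each, and 4273 symbols. At their starts, within 1 kb, H3K4me3 was found in forebrain alone for 2.71% of the regions (217, 2.37 to 3.09%) and in limb alone for 1.95% (156, 1.66 to 2.28%). For limb-only regions the order was the other way, 1.26% (1.14 to 1.39%) and 3.07% (2.88 to 3.27%). Counted once per gene, the shares of the forebrain-only set were 2.27% for forebrain alone (1.84 to 2.76%) and 2.34% for limb alone (1.91 to 2.84%), against 1.41% (1.17 to 1.68%) and 3.19% (2.83 to 3.58%) for the limb-only set. H3K27me3 in limb alone was found at the nearest start of 16.7% of forebrain-only regions (15.9 to 17.6%) and 13.3% of limb-only regions (12.96 to 13.74%). H3K27me3 in forebrain alone was found for 2.92% (2.56 to 3.31%) and 4.47% (4.24 to 4.71%), but once per gene for 3.09% and 2.95%, with overlapping intervals. The shared distal regions stood close to the forebrain-only ones in both, with H3K4me3 in forebrain alone for 2.39% (2.12 to 2.70%) and H3K27me3 in limb alone for 16.5% (15.9 to 17.3%), and the intervals overlapped. H3K4me3 in limb alone was found for 2.90% of shared regions (2.59 to 3.23%), more than for forebrain-only ones, with intervals apart. For most forebrain-only regions, 64.9%, the nearest start carried H3K4me3 in both tissues. The H3K4me3 lists read at the starts are those that the rule used to choose the members, so these H3K4me3 shares are a description. The H3K27me3 lists were not used by the rule.

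Within 100 kb, 1555 of the 16025 placed genes (9.7%) had 3 or more forebrain-only regions, against 8811 (55%) with 3 or more limb-only regions. The limb set is 29990 regions long, which bears on this contrast. The count of 1555 moved with the settings: it was 2646 with the limb list shortened to the length of the forebrain list, 200 in the better-ranked 50% of the forebrain list, 485 within 50 kb and 5494 within 250 kb. Of the placed genes, 7781 had at least 1 forebrain-only region, 332 had 5 or more, 22 had 8 or more and the highest count was 11. The 1555 genes fell into 732 loci, of which 351 were of 1 gene, because neighbours share regions. Such genes held 3306 of the members (41.3%) in their surroundings. Most also had limb regions: 1158 (74.5%) had 3 or more limb-only regions, 87 (5.59%) had 0, and 47 of these had no shared region either. Of all placed genes 16.2% had 0 limb-only regions.

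At their starts, H3K4me3 in forebrain alone and H3K27me3 in limb alone were more frequent than over all genes, while more starts had H3K4me3 in neither tissue. Here too the H3K4me3 lists are those that chose the members, so the H3K4me3 shares only describe the set. H3K4me3 in forebrain alone was found at 45 of the 1555 starts (2.89%, 2.12 to 3.85%), against 230 of all 16025 (1.44%) and 79 of the 8244 genes with 0 such regions (0.958%, 0.759 to 1.19%). H3K4me3 in limb alone was found at 28 (1.80%, 1.20 to 2.59%), against 432 of all (2.70%), and its interval overlapped that of forebrain alone. Both tissues had H3K4me3 at 66.4% of the starts, against 71.9% of all, and neither had it at 28.9%, against 24.0%. H3K27me3 in limb alone was found at 286 (18.4%, 16.5 to 20.4%), against 12.4% of all genes, 10.7% of genes with 0 regions (9.99 to 11.3%) and 22.9% (76) of the 332 genes with 5 or more. Genes with 3 or more limb-only regions had it in 13.3%. H3K27me3 in forebrain alone was found at 31 (1.99%), against 2.25% of all.

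The locus with the most members was that of Sez6l on chromosome 5, a gene related to the neuronal membrane protein Sez6, with 24 regions over 884 kb and 12 genes. Sez6l itself had 11 forebrain-only, 16 shared and 4 limb-only regions, and its start carried H3K4me3 and H3K27me3 in both tissues. The Ephb2 locus, named after another Eph receptor of axon guidance, held 18 regions, with 9 forebrain-only, 17 shared and 5 limb-only at Ephb2. The locus of 4931403E03Rik held 18. The locus of AK045483 held 16, that of Dnahc8, an axonemal dynein, 14, and that of Dync1i2, a dynein intermediate chain, 14 in a locus that includes Dlx1 and Dlx2. Then came Zswim6 (13), Ghrh, the hormone that releases growth hormone (13), Psmb7, a proteasome subunit (12), msi2, a Musashi RNA-binding protein of neural progenitors (12), AK045142 (12), Prok1 (12), Myo3b (11) and 1700125F08Rik (11). At Myo3b 9 forebrain-only regions stood beside 1 limb-only region, and at Zswim6 10 beside 11, so a high count did not mean a lack of limb regions. A locus is named by its gene with the most regions, and which gene a region acts on was not measured.

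In 4 of the 5 forebrain and neural gene lists, forebrain-only regions made up a larger part of the one-tissue regions than over all genes, with an interval above that value. In the list of neural progenitor and neuronal genes the interval held it. Over all 16025 placed genes 20.3% of the one-tissue distal regions within 100 kb were forebrain-only (6039 against 23768 limb-only). For 21 telencephalon and eye-field transcription factors it was 37.2% (29 of 78, 26.5 to 48.9%), for 12 ventral forebrain regulators 35% (21 of 60, 23.1 to 48.4%), for 25 cortical and proneural regulators 29.1% (41 of 141, 21.7 to 37.3%), for 30 genes of axon guidance and adhesion 37.4% (65 of 174, 30.2 to 45.0%) and for 18 neural progenitor and neuronal genes 30.3% (23 of 76, 20.2 to 41.9%). Counts of genes with 3 or more regions were 3 of 21 (14.3%), 4 of 12 (33.3%), 6 of 25 (24%), 11 of 30 (36.7%) and 1 of 18 (5.56%), beside 9.7% of all genes, so the last list lay below the background. The median number of forebrain-only regions per gene was 1, 1.5, 1, 1.5 and 1, against 0 over all genes. The intervals of these shares, here and for the lists below, treat regions as independent, though single genes gave several. Otx1 gave 6 of the 29 and Epha4 8 of the 65.

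Of the lists of other cell types and regions, 4 had a lower share with an interval below the value over all genes. Limb mesenchyme genes had 6.79% (11 of 162, 3.44 to 11.8%) with 0 of 24 genes at 3 or more, neural crest and cranial mesenchyme 8.54% (7 of 82, 3.50 to 16.8%) with 1 of 14, heart 4.35% (2 of 46, 0.531 to 14.8%) with 0 of 8, and endothelium 11.7% (12 of 103, 6.17 to 19.5%) with 1 of 13. The intervals of the other 3 lists held the value over all genes. Midbrain and hindbrain genes lay above it at 23.9% (27 of 113, 16.4 to 32.8%), with 3 of 20 genes at 3 or more (15%), and housekeeping genes below it at 15.5% (9 of 58, 7.35 to 27.4%), with 1 of 19. Of 12 blood genes 7 could be placed, so their 16.7% (7 of 42, 6.97 to 31.4%) covers part of the list, with 0 of 7 at 3 or more. The median number of forebrain-only regions per gene was 1 for midbrain and hindbrain, endothelium and blood as well, and 0 for the other 4 lists. A region near several genes of 1 list was counted once in these shares, and the part of blood, vessel or other cells in the forebrain pool was not tested.

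**Figure D4:**
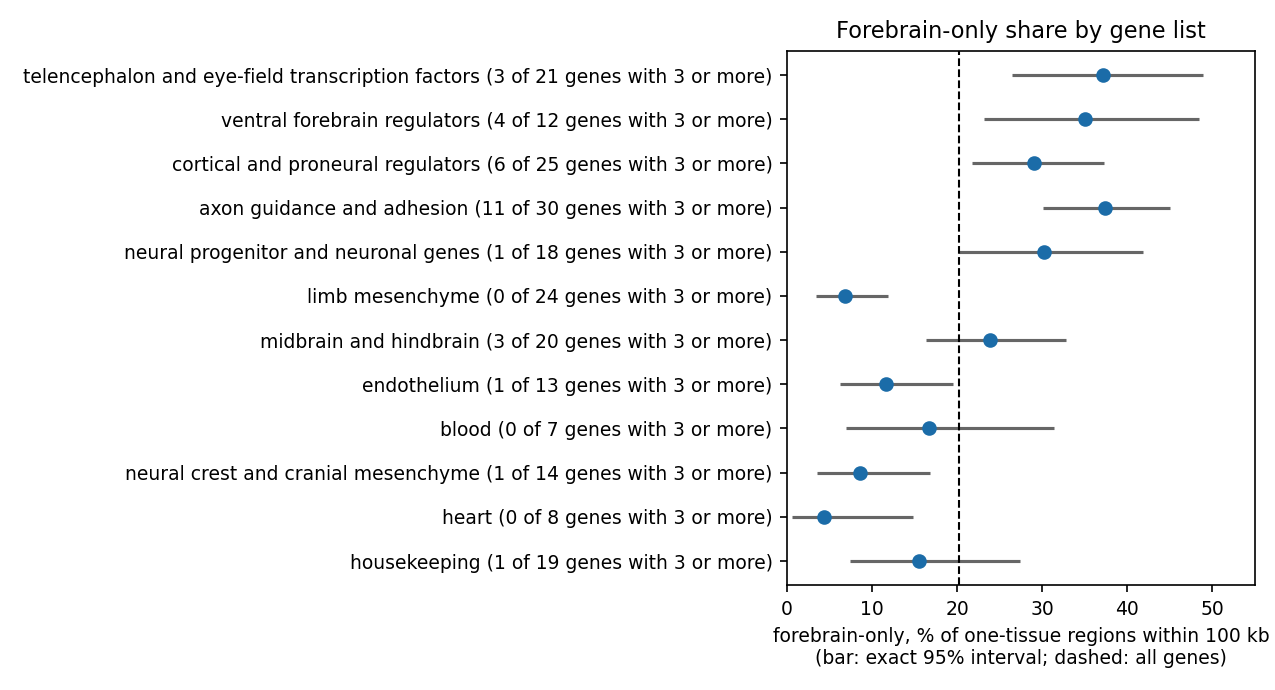
Forebrain-only regions as a percentage of all one-tissue distal H3K4me1 regions within 100 kb of the genes of each list (points; lines, exact 95% intervals), with the value over all 16025 genes dashed at 20.3%. The 5 forebrain and neural lists lie above the dashed line, between 29.1% and 37.4%, and limb mesenchyme, heart and neural crest lie at 8.54% or below.

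Among the transcription factors of these lists the highest counts were at Otx1, a homeobox gene of the forebrain, and Sox1, a gene of neural progenitors, with 6 each. All 6 Otx1 regions lay to one side of the start, from 14.95 to 79.55 kb, with widths of 1220 to 4691 bp, none with H3K27me3 and none in a FLAG list, and Otx1 had 1 shared and 0 limb-only regions. Sox1 differed: 5 of its 6 regions carried H3K27me3 of a tissue, 4 of them that of limb, and 8 shared and 2 limb-only regions stood beside them. Nfia, a factor of the switch to gliogenesis, had 5 forebrain-only among 15 shared and 12 limb-only regions. Neurog2 had 4, from 28.2 to 96.8 kb to one side, 1 of them with forebrain H3K27me3 and none in a FLAG list. Gsx2, a homeobox gene of the ventral telencephalon, had 4, of which 3 carried forebrain H3K27me3 and 2 lay in SMARCA4 ESC. Dlx1 and Dlx2, homeobox genes of GABAergic neurons, had 4 each beside 4 shared and 5 limb-only, and share 3 of them. Zic2 had 4, of which 1, at -9.504 to -8.709 kb along the chromosome from the start, lay in SMARCA4 of forebrain and of neural tube. Bcl11a, Neurod6, Zeb2 and Lhx5 had 3 each.

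Among genes of axon guidance and adhesion Epha4 and Ncam1 had 8 each. The Epha4 regions were 788 to 3808 bp wide and stood on both sides of the start with 2 shared and 0 limb-only regions, 2 of them lay in a FLAG list (1 in SMARCA4 ESC, 1 in SMARCA4 heart) and none carried H3K27me3. Ncam1, a cell adhesion molecule of neurons, has 3 placed starts and had 9 limb-only regions beside its 8. Ephb1 and Slit1, the latter a repulsive guidance ligand, had 5 each, and 2 of the Slit1 regions lay in SMARCA4 midbrain. Cntn2, an axonal adhesion protein, had 4, of which 3 carried limb H3K27me3 and 1, of 1554 bp, lay in SMARCA4 of forebrain, neural tube and face. Epha3 had 3 with 0 shared and 0 limb-only regions, Nrcam 3 with 1 and 0, and Efna5, Plxna2, Robo1 and Sema6a had 3 each. Ptprz1, the 1 progenitor gene at 3 or more, had 6, between -83.01 and 63.06 kb along the chromosome from the start, with 0 shared and 0 limb-only regions, and the widest of them (4797 bp) lay in SMARCA4 neural tube.

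Some genes of other lists were also among them. Pax7, a gene of dorsal midbrain and spinal cord, had 4 forebrain-only regions beside 10 shared and 5 limb-only, and Pax2 and Pax8 had 3 each. The proteasome gene Psmb2 had 4 with 4 shared and 0 limb-only and the endothelial receptor gene Tie1 had 3 with 6 limb-only. At Tbx5, a forelimb gene, 1 forebrain-only region stood among the limb-only ones.

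**Figure D5:**
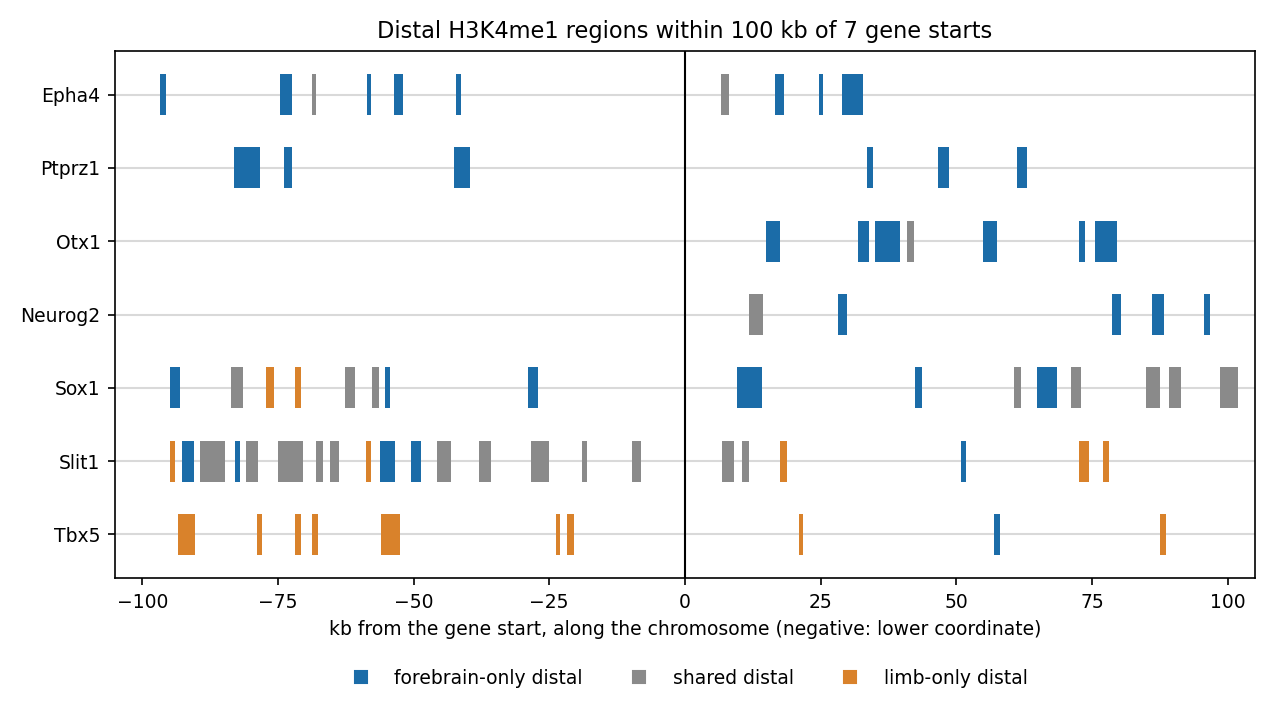
Position of forebrain-only (blue), shared (grey) and limb-only (orange) distal H3K4me1 regions within 100 kb of 7 gene starts, in kb along the chromosome; blocks are drawn to scale, with a minimum width of 0.8 kb. Epha4, Ptprz1, Otx1 and Neurog2 have 8, 6, 6 and 4 blue blocks and 0 orange ones, whereas Sox1 and Slit1 hold all 3 kinds and the limb gene Tbx5 has 1 blue block.

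The starts of these genes often carried both active and Polycomb marks. Of the 25 genes of the forebrain and neural lists with 3 or more forebrain-only regions, 24 had H3K4me3 in forebrain, 21 in limb, 8 had H3K27me3 in forebrain and 21 in limb, of which 14 in limb alone. Of the 81 placed genes of those lists with fewer regions, 75 had H3K4me3 in forebrain, 60 in limb, 42 H3K27me3 in forebrain and 67 in limb, of which 29 in limb alone. Over all placed genes the shares were 73.3% and 74.6% for H3K4me3 and 18.9% and 29.0% for H3K27me3. The H3K4me3 lists were also used by the rule. Epha4, Ptprz1, Epha3, Nrcam and Otx1 had limb H3K27me3 and no forebrain H3K27me3 at the start, and Neurog2 had both. Lhx5, Gsx2, Zic2 and Pax7 had H3K4me3 in forebrain and not in limb. At the start of Neurod6, a gene of differentiating cortical neurons, and at that of Tie1 neither H3K4me3 nor H3K27me3 was listed in either tissue.

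The tissue labels were checked at the starts of marker genes. Of 17 forebrain markers, 16 had H3K4me3 in forebrain and 11 in limb, and 11 had H3K27me3 in forebrain and 17 in limb. Tbx5, of forelimb, had H3K4me3 in limb and not in forebrain, while Prrx1, of limb mesenchyme, had it in both. Of the endothelial genes, Pecam1 and Cdh5 had it in neither and Kdr in both. In the labels, the protocol of the histone samples speaks of heart and hindbrain, in contrast to their titles.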

How the data were processed

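Chromatin immunoprecipitation was followed by sequencing. The submitters' processing notes name BWA as aligner and mm9 as genome build. For the peak caller, nothing is given in the sources used here. A list comes from 1 library. Per the file headers, 16 of the 30 lists give, for each peak, a count of tags (not normalised), a conservation score, the nearest gene and its distance. The other 14 deposited lists, among them all histone lists, hold positions and a rank. From the deposited tables, the false discovery rate (percent) was read for SMARCA4 midbrain alone. The median tag count per peak ranged from 7 to 91 over the 16 tables, and library depth is unknown. Where a label disagreed with the title, the title was used. All FLAG samples have a SMARCA4 genotype tag, whichever protein their title names.

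Regions were compared by overlap of at least 1 bp in Python 3.11.15 (numpy 2.4.6, pandas 2.3.3, scipy 1.17.1). Shares have exact (Clopper-Pearson) 95% intervals and stand beside the mean of 100 circular shifts, a description with no test. Gene starts were worked out from summit and distance where at least 2 peaks agreed, which placed 18934 of 23432 gene identifiers, or 16025 genes by symbol and chromosome. Strand was not used. Of these genes 10366 matched a RefSeq symbol. Overlap and counting were tested on simulated regions. No mm9 genome was used here, so no sequence of a region is printed, and no coordinate was converted between builds.

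The members, gene lists and comparisons were chosen with earlier results of these data known. Genes named are the 15 loci with the most members, listed genes with 3 or more members, and the nearest genes of the 5 widest, the 5 best-ranked and the 10 most often bound members. Some genes that this rule names are not reported here. Others were named after their values were seen: Tbx5, Prrx1, Pecam1, Cdh5 and Kdr as markers, and genes past the 20 listed first. The control samples of SMARCA4 in forebrain, limb, neural tube and heart were not analysed here.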

Additional observations from a re-analysis of the deposited data

How the results depend on the processing

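No paired analysis was possible because each condition had 1 library. Of 42 alternative values for the 6 main results, 25 stayed within 1.5 times the main count or width, or within the interval of the main share, and 17 moved. The cause of a move was not tested, except where the setting itself leaves out regions or genes. In the better-ranked 50% of the forebrain list there were 2315 members and 200 genes with 3 or more, and forebrain H3K27me3, limb H3K27me3 and forebrain SMARCA4 covered 6.39%, 8.42% and 3.71%. With the limb list shortened by rank, there were 11155 members, 2646 genes had 3 or more and the H3K27me3 shares were 4.72% and 7.92%. With at least 50% of a region to be covered, they were 1.76% and 5.71%, and in the central 500 bp the forebrain mark covered 2.62%. Limited to peaks away from H3K4me3, a setting chosen after the data were seen, the 3 lists covered 3.58%, 4.88% and 1.59%. Without members in a control or input list forebrain SMARCA4 covered 1.57%. Within 50 kb 485 genes had 3 or more regions and within 250 kb 5494. The median width lay between 1222.5 and 1689 bp under its 5 alternatives. The lists of NCOA1 and NCOA2 covered 6 and 8 members, too few to compare, and library depth is unknown.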

Other observations

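Forebrain-only regions mostly stood alone. With gaps of up to 10 kb joined, 6403 (80.0%) had no other member beside them and 110 groups held 3 or more, with the largest, 6 regions over 35.9 kb on chromosome 2, lying 91.7 kb from Med27 and in no FLAG list. The groups of 5 were nearest to Hfe, in the main histone gene cluster and with 4 regions in FLAG lists, to Wnt7b, with 2, and to Prdm16, a zinc-finger regulator, with 1. The forebrain-only part of one-tissue distal regions ranged from 18.2% on chromosome X to 24.0% on chromosome 4, and was 21.1% (20.7 to 21.5%) overall.

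The authors' conservation score, whose scale is not stated, can be read within each deposited table. For SMARCA4 hindbrain peaks away from H3K4me3 its median was 398.5 over 142 peaks in forebrain-only regions, 416 over 431 in shared regions, 349 over 178 in limb-only regions and 267 over 866 peaks with no H3K4me1. For SMARCA4 ESC the medians were 357.5 (276 peaks), 360 (560), 289 (501) and 244 (3477). For SMARCA4 heart they were 323, 341, 315 and 276. Peaks over forebrain-only regions thus scored above peaks with no H3K4me1 in these 3 tables. They were also wider in ESC (192 against 149 bp), hindbrain (273.5 against 233.5 bp) and heart (337 against 304 bp). Their median tag counts were higher as well, at 10 against 8 in ESC, 14 against 11 in hindbrain and 35 against 31 in heart. The part of width and of tag count was not tested.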
